A study of Mus musculus with 6 samples.

Results

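The cytochrome P450 (Cyp) genes of the postnatal mouse kidney were examined in kidneys that had lost the transferrin receptor from the nephron lineage. Members were all gene symbols that begin with Cyp and a digit, apart from Cyp24a1 and Cyp27b1, which were left out by rule. There were 103 such symbols among the 24422 genes counted. Of these, 40 had at least 60 reads summed over the 6 libraries and were tested, 49 had 1 to 59 reads and 14 had 0 reads. The symbol Cyp4x1os, a transcript named as antisense to Cyp4x1, also met the rule. Positions were found for 96 of the 103 genes in the annotation of mm9, the genome build of the counts.

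Poly-A RNA was sequenced from whole kidneys of C57BL/6 mice on postnatal day 13, all on a diet with 220 ppm iron. The 3 Control kidneys were wild type, and the 3 TfR1 knockout kidneys were TfR1KO with Six2Cre (genotype Tfr1 f/f with SixCre). Six2CreEGFP is a recombinase line that acts in the progenitors of the nephron, so the collecting duct, stroma and vessels are not its targets, and the study describes tubule cells that escaped the deletion. The floxed allele removes exons 3 and 4 of the receptor gene and was made in KV1 embryonic stem cells. Kidneys of male and female offspring were used, without a sex in the labels. The comparison asked which transcripts change when the uptake of transferrin iron is blocked in the nephron.

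P450 enzymes are heme proteins. Most sit in the endoplasmic reticulum and take electrons from the reductase Por, and a few in mitochondria take them from ferredoxin (Fdx1) and its reductase (Fdxr). An iron atom, held in heme by a cysteine of the enzyme, activates oxygen, which is then inserted into fatty acids, sterols, steroids, retinoids or foreign compounds. In the kidney the proximal tubule is rich in family 4 enzymes, which hydroxylate the ends of fatty acids and make 20-HETE from arachidonic acid, and in Cyp2j enzymes, which make epoxides from it.

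Total gene counts ran from 16591156 to 22898008 per library, so that counting error was small for all but the rarest P450 genes, and intervals given for those cover counting error only. Values below are normalized counts, which are read counts scaled to library sizes adjusted by the trimmed mean of M-values, and fold changes are TfR1 knockout over Control on the log2 scale. Tfrc itself, the targeted gene, had 5656, 6565 and 3752 normalized counts in the Control libraries and 7096, 4033 and 5961 in the TfR1 knockout libraries, each in order of replicate (log2 fold change 0.10, SE 0.27, edgeR adjusted p = 0.846), so its total count does not check the labels. Xist was high in Control replicates 1 and 3 and TfR1 knockout replicate 2 (17073 to 27070 normalized counts), and Y-linked Ddx3y was high in the other libraries (1427 to 2372), so that both groups were mixed in sex. Adrenal markers were high in Control replicate 1 and, less so, in TfR1 knockout replicate 3 (summed 23885 and 3999, against 697 to 1078 elsewhere). The labels give separate samples without naming animals, so p-values measure the spread between these samples. In whole kidneys, fewer cells of a type and less RNA per cell cannot be told apart.

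The heme-binding stretch of the genes on which the results turn is printed here, because it holds the cysteine that carries the iron and because it shows how alike the reads of close relatives are. It was found by a search of each coding sequence of the mm9 annotation for a stretch of 10 codons with phenylalanine at position 1, glycine at position 4, cysteine at position 8 and glycine at position 10. The stretch was present in 37 of the 40 tested genes. Each is 30 coding bases, 5′ to 3′ on the coding strand, with the cysteine codon in capitals; in these genes an intron divides the stretch, so the genomic span is longer than 30 bases.
Cyp2j13: ttttcaatgggaaagcgagctTGCctcgga
Cyp2j5: ttctcaatgggaaaaagagctTGTcttgga
Cyp2b10: ttctcaacaggaaagcgcattTGTcttggt
Cyp2e1: ttttctgcaggaaagcgcgtgTGTgttgga
Cyp4a14: ttctcaggaggatcaaggaacTGCattggg
Cyp4a12b: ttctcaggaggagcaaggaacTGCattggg
Cyp4a10: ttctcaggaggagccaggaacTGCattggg
Cyp4a31: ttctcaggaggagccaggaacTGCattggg
Cyp4a32: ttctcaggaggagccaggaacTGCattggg
Cyp4v3: ttttctgctggacctcgaaacTGTattggt

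The spans in mm9 were chr4:95712300-95723258 (minus strand) for Cyp2j13, chr4:96296318-96297411 (minus) for Cyp2j5, chr7:26702439-26711106 (plus) for Cyp2b10 and chr7:147959661-147960476 (plus) for Cyp2e1. For the family 4 genes they were chr4:115159904-115162410 (minus) for Cyp4a14, chr4:115107845-115110674 (plus) for Cyp4a12b, chr4:115202107-115205148 (plus) for Cyp4a10, chr4:115247555-115250553 (plus) for Cyp4a31, chr4:115287485-115294051 (plus) for Cyp4a32 and chr8:46392461-46393761 (minus) for Cyp4v3. The stretches of Cyp4a10, Cyp4a31 and Cyp4a32 were identical, and Cyp4a14 differed from them at 2 of 30 bases. Cyp2j13 and Cyp2j5 differed at 5 bases, and Cyp2j13 and Cyp4a14 at 15. Reads in such stretches cannot be assigned to 1 gene where the copies are identical over a whole read. Of the 40 tested genes, 13 had at least 1 window of 100 bases, the length of a read, that was identical to a window of another annotated transcript. Such windows made up 36.2% of the transcript of Cyp4a12b (shared with Cyp4a12a), 20.1% of Cyp4a32 and 12.7% of Cyp4a10 (with each other), 7.5% of Cyp4v3 (with Klkb1, which overlaps it) and 4.05% of Cyp4a31. They made up 0% of Cyp4a14, Cyp2j13, Cyp2j5, Cyp2b10 and Cyp2e1. Since the authors counted uniquely aligned reads, counts of the first group understate the gene, and how reads divided among Cyp4a10, Cyp4a31 and Cyp4a32 is uncertain.

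More P450 genes were higher in TfR1 knockout kidneys than lower. At an edgeR adjusted p under 0.05, 8 of the 40 tested genes rose (20%, against 3.11% of the 15327 genes tested) and 0 fell (against 2.68%). The 8 were Cyp2j13, Cyp2b10, Cyp4a32, Cyp4a12b, Cyp4a14, Cyp2e1, Cyp4a31 and Cyp4v3, so that 5 belonged to family 4 and 3 to family 2. At an unadjusted edgeR p under 0.05 there were 14 higher and 2 lower, for which no share of all genes was taken. With limma-voom 6 and 0 were called (15% and 0%), against 461 and 440 of all 15327 genes. DESeq2 called 13 and 2 of the 36 genes to which it gave an adjusted p (36.1% and 5.56%, against 8.47% and 7.87% of all genes). The libraries of the groups did not overlap for 14 genes that were higher in knockout (35%, against 16.9% of all genes) and for 2 that were lower, Cyp3a13 and Cyp46a1 (5%, against 17.9%). The median log2 fold change over the 40 genes was 0.16, against -0.0071 over all genes tested, and 22 of 40 fold changes were positive (55%, against 49.4%).

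Of the 8 genes, 3 (Cyp2b10, Cyp4a12b and Cyp4a32) and the uncalled Cyp2t4 had fewer than 30 reads in the 3 Control libraries, so that they reached 60 reads through the knockout libraries and could not have been tested without a difference. These 4 genes were also among the 14 whose libraries did not overlap, so that the 35% draws on them too. DESeq2 called all 4 of them, and limma-voom called Cyp2b10 and Cyp4a12b. The shares of 36.1% and 15% given above for DESeq2 and limma-voom therefore draw on them as well. Among the other 36 tested genes 5 rose, 18 had a positive fold change and the median log2 fold change was 0.05. Cyp2j13 and Cyp2b10 passed in each of the 6 fits that left out 1 library, whereas the other 6 genes passed in 0 to 2 of them. Without Control replicate 1 or without Control replicate 2, these 2 genes alone rose, and without TfR1 knockout replicate 3 they rose with Cyp4a12b. Without Control replicate 3 there were 4 higher genes and 1 lower, and without TfR1 knockout replicate 2 there were 4 and 0. Without TfR1 knockout replicate 1 there were 8 higher and 2 lower genes (Cyp3a13 and Cyp51).

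**Figure D1:**
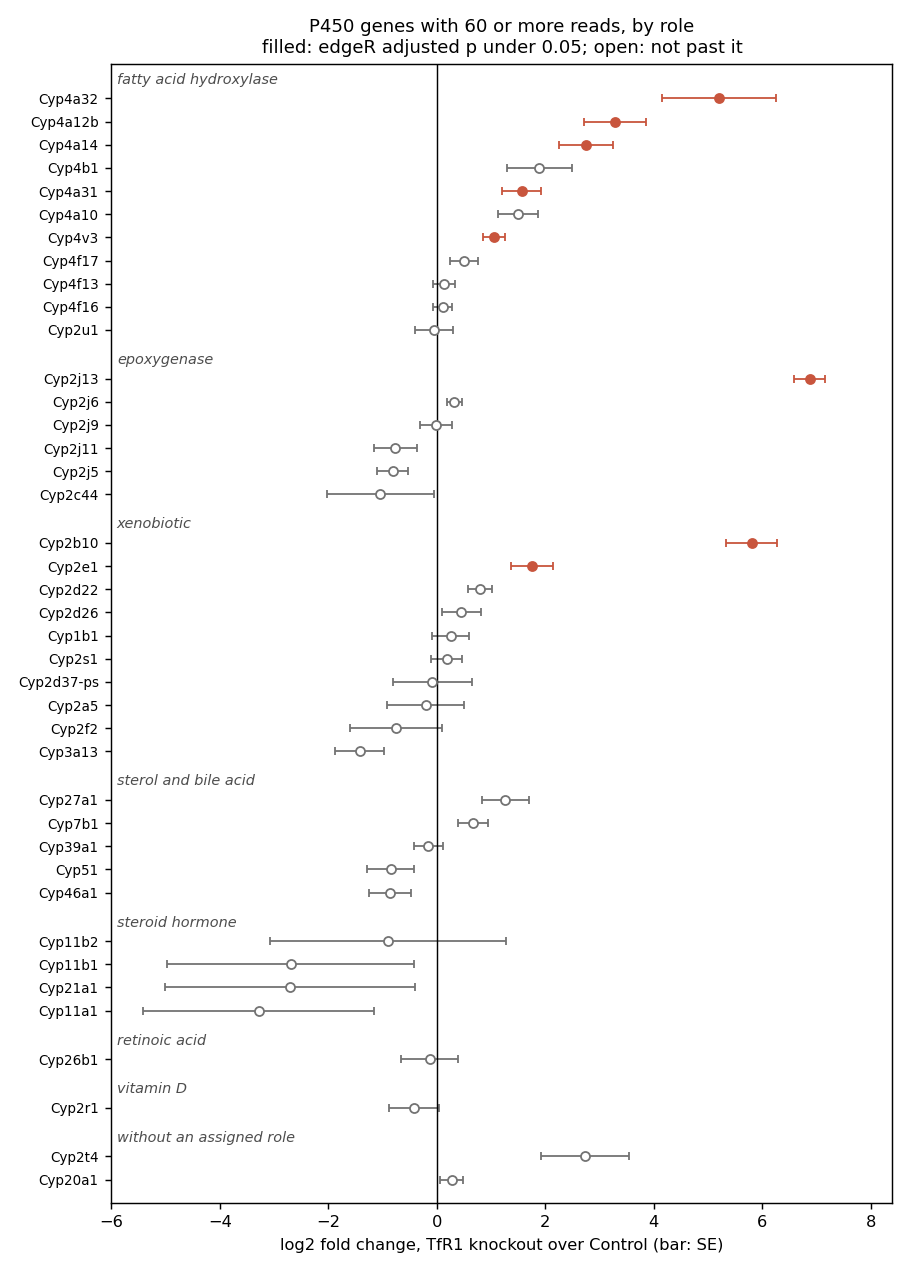
The log2 fold change of TfR1 knockout over Control (x axis) of the 40 P450 genes with 60 or more reads, grouped by role, with the standard error as a bar; filled points passed an edgeR adjusted p under 0.05. The 8 filled points lie between 1.06 (Cyp4v3) and 6.87 (Cyp2j13), and the steroid hormone genes have the widest errors (SE 2.13 to 2.30).

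The fatty acid hydroxylases, all but 1 of them from family 4, made up the largest group of higher genes. Of 11 tested genes of this role, 5 rose, 0 fell and 10 had a positive fold change (median 1.49), where 3.11%, 2.68% and 49.4% of all genes tested did. At an unadjusted edgeR p under 0.05 there were 7 higher and 0 lower, DESeq2 called 7 and 0, and limma-voom called 4 and 0. Without Cyp4a12b and Cyp4a32, which reached 60 reads through the knockout libraries, 3 of 9 rose and 8 had a positive fold change (median 1.06). The DESeq2 calls include both of these genes, and the limma-voom calls include Cyp4a12b. Cyp4a14, a microsomal hydroxylase known as a target of the fatty acid receptor PPAR alpha, is at chr4:115158805-115168747. It had 6661, 7596 and 5368 normalized counts in the Control libraries, in order of replicate, and 21902, 80073 and 30139.5 in the knockout libraries. The groups did not overlap, and TfR1 knockout replicate 2 stood far above its group. The mean rose from 6542 ± 1119 to 44038 ± 31478 (SD, n = 3 each), a log2 fold change of 2.75 (SE 0.50, edgeR adjusted p = 0.0268). Without TfR1 knockout replicate 2 the log2 fold change was 2.00 and passed (edgeR adjusted p = 0.0143), and without any 1 of the Control libraries or TfR1 knockout replicate 3 the p was 0.0626 to 0.0982.

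Cyp4a31 (chr4:115236254-115251618) had 2209, 2876 and 1606 normalized counts in Control and 4342, 10032 and 5366 in TfR1 knockout, in order of replicate. Every knockout library lay above every Control library, and the log2 fold change was 1.56 (SE 0.35, edgeR adjusted p = 0.0484), which passed in 1 of 6 omissions, that of TfR1 knockout replicate 1 (0.0352). Cyp4a10 (chr4:115190869-115206254) had 2294, 2814 and 1854 in Control and 5501, 10287 and 3801 in TfR1 knockout. Its groups were also separate, but the log2 fold change of 1.49 (SE 0.36) did not pass (edgeR adjusted p = 0.0579; DESeq2 adjusted p = 0.000847). The coding sequences of these neighbours are 96.6% identical.

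Both scarce members of the group were raised from near the counting floor. Cyp4a32 (chr4:115273574-115294207), whose coding sequence is 97.2% identical to that of Cyp4a10, had 4.21, 1.84 and 1.1 normalized counts in Control and 20.2, 214 and 53.5 in TfR1 knockout. Its 8 Control reads against 244 knockout reads gave a ratio of 34.4 (95% counting interval 17.2 to 80.6), and the log2 fold change was 5.20 (SE 1.05, edgeR adjusted p = 0.0355). It was 3.85 without TfR1 knockout replicate 2 (edgeR adjusted p = 0.0445), and the p was 0.0817 to 0.116 without a Control library or TfR1 knockout replicate 3. Cyp4a12b (chr4:115084229-115111639) had 9.27, 6.44 and 3.30 in Control and 100.1, 58.7 and 33.5 in TfR1 knockout. Here knockout replicate 1, not replicate 2, was the highest. The 21 Control and 180 knockout reads gave a ratio of 9.68 (95% counting interval 6.14 to 16.0), with a log2 fold change of 3.29 (SE 0.57, edgeR adjusted p = 0.0239) and a p of 0.0526 to 0.0851 without a Control library. It did not pass without TfR1 knockout replicate 2 either. Its near copy Cyp4a12a, 98.5% identical in the coding sequence, had 5 reads in Control and 27 in knockout libraries in all.

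Cyp4v3, the mouse counterpart of the fatty acid hydroxylase lost in Bietti crystalline dystrophy, lies on chromosome 8 (chr8:46391155-46418570) and changed by a smaller and more even factor. It had 142, 156 and 189 normalized counts in Control and 323, 386 and 309.8 in TfR1 knockout. The groups were separate and of small spread (log2 fold change 1.06, SE 0.20, edgeR adjusted p = 0.0313). The p was 0.0594 to 0.136 without Control replicate 1 or 2 or TfR1 knockout replicate 2 or 3. Klkb1, the plasma kallikrein gene that overlaps it on the same strand, moved the other way, from 59, 58.9 and 38.6 to 17.2, 16.6 and 17.2 (log2 fold change -1.61, SE 0.34, edgeR adjusted p = 0.0394).

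The remaining family 4 genes did not pass in edgeR. Cyp4b1, a hydroxylase known from lung and kidney, had 137, 139 and 162 normalized counts in Control and 246, 1126 and 250.5 in TfR1 knockout. The groups did not overlap, but the log2 fold change of 1.89 (SE 0.60, edgeR adjusted p = 0.108; DESeq2 adjusted p = 0.00817) was 0.78 without TfR1 knockout replicate 2. The Cyp4f genes, which hydroxylate leukotrienes and long fatty acids, had log2 fold changes of 0.50 (Cyp4f17), 0.13 (Cyp4f13) and 0.11 (Cyp4f16), with edgeR adjusted p of 0.269 to 0.741. Cyp2u1, a fatty acid hydroxylase outside family 4, had a log2 fold change of -0.06 (SE 0.35).

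**Figure D2:**
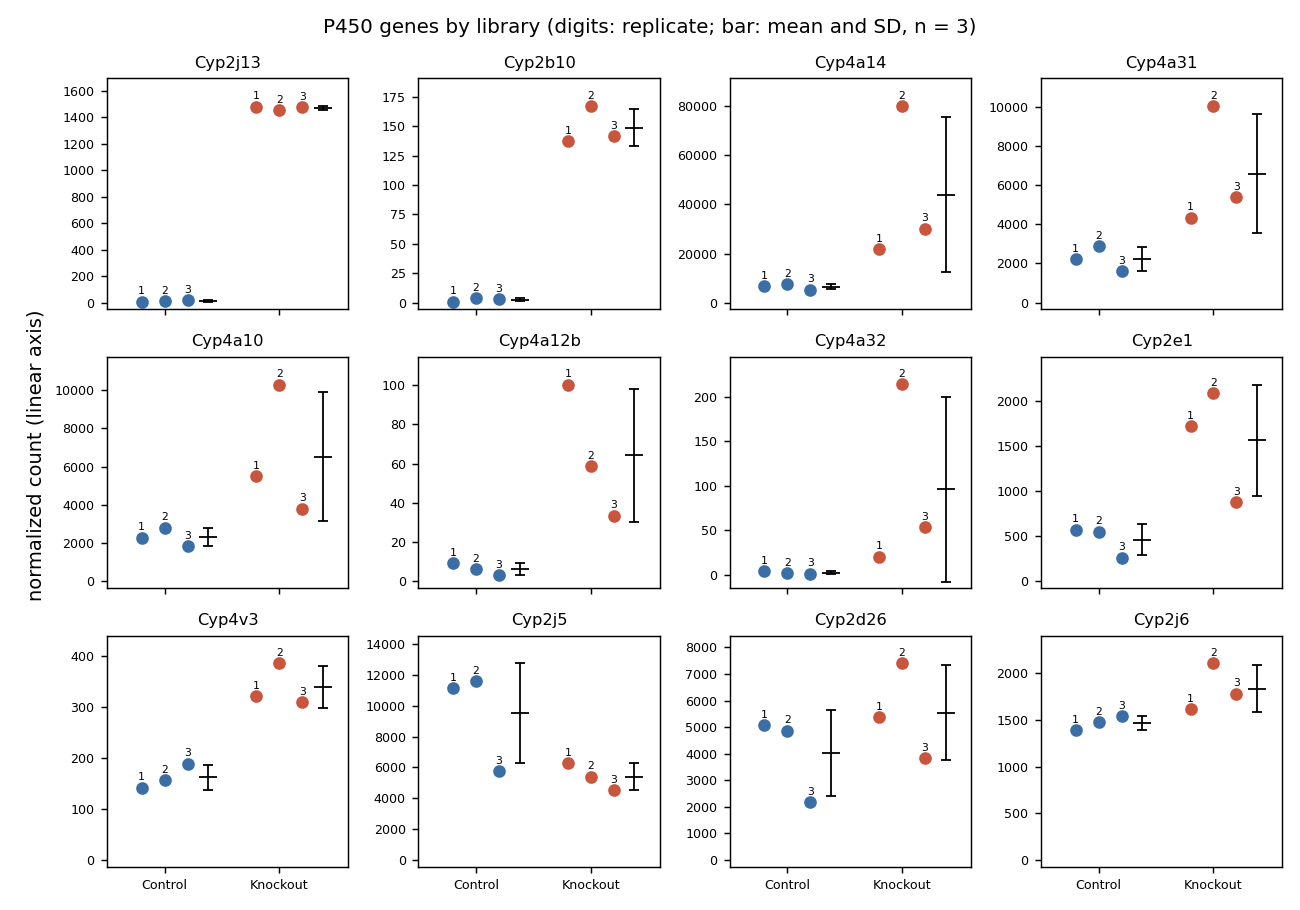
Normalized counts (y axis, linear, a scale of its own in each panel) of 12 P450 genes in the 3 Control (blue) and 3 TfR1 knockout (red) libraries, with replicate numbers above the points and the mean and SD (n = 3) as a bar. For Cyp2j13 the knockout points sit at 1457 to 1481 and the Control points at 7.58 to 18.7, whereas for Cyp4a14 knockout replicate 2 (80073) stands far above replicates 1 and 3.

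Among the epoxygenases, which turn arachidonic acid into epoxides that act on vessels and on sodium transport, 1 gene changed by a very large factor and its neighbours did not pass. Cyp2j13 (chr4:95694225-95744237) had 7.58, 12.0 and 18.7 normalized counts in Control and 1481, 1457 and 1479 in TfR1 knockout. The groups were far apart, and the knockout libraries nearly coincided, in a group where Cyp4a14 varied severalfold. The mean rose from 12.8 ± 5.61 to 1472 ± 13.5 (SD, n = 3 each), a log2 fold change of 6.87 (SE 0.29, edgeR adjusted p = 0.000454), which ranged from 6.59 to 7.23 when 1 library was left out. No 100-base window of its transcript was shared with another gene.

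Cyp2j5, the main renal epoxygenase and the P450 gene of the highest level per kilobase of exon in Control, lies at the other end of the same cluster (chr4:96295464-96330845). It had 11121, 11607 and 5774 normalized counts in Control and 6269, 5399 and 4519 in TfR1 knockout. Control replicate 3 lay within the knockout range. The log2 fold change of -0.82 (SE 0.28) did not pass (edgeR adjusted p = 0.130; DESeq2 adjusted p = 0.0439), and without Control replicate 3 it was -1.07 and passed (edgeR adjusted p = 0.0290). Cyp2j6 had 1388, 1472 and 1541 in Control and 1611, 2105 and 1782 in TfR1 knockout, separate groups with a log2 fold change of 0.32 (SE 0.14, edgeR adjusted p = 0.197). Cyp2j9 and Cyp2j11 had log2 fold changes of -0.01 (SE 0.29) and -0.77 (SE 0.40). The other 2 genes of the cluster, Cyp2j12 and Cyp2j8, had 5 and 29 reads in all libraries.

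**Figure D3:**
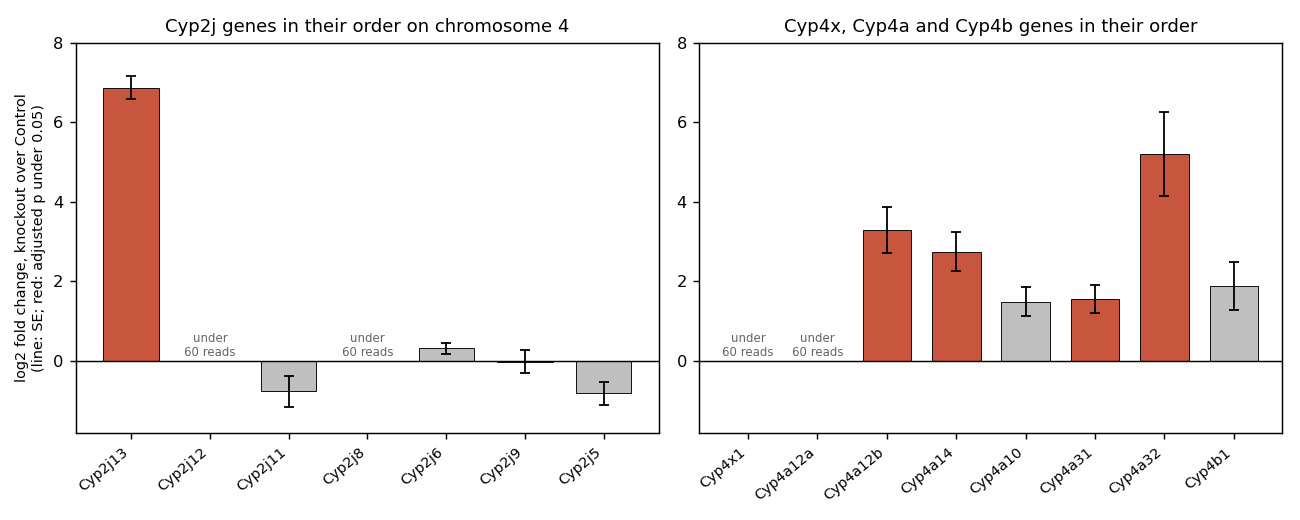
The log2 fold change of TfR1 knockout over Control (y axis, line: SE) of the Cyp2j genes (left) and the Cyp4x, Cyp4a and Cyp4b genes (right) in their order on chromosome 4, evenly spaced; red bars passed an edgeR adjusted p under 0.05. Of the Cyp2j genes Cyp2j13 (6.87) alone passed, whereas all 5 tested Cyp4a genes had values from 1.49 to 5.20.

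Chromosome 4 holds 16 P450 genes, and 2 clusters with called members lie there. In the Cyp4a cluster all 5 tested Cyp4a genes, transcribed from both strands, had positive fold changes and 4 passed. Of the 3 that had 30 or more Control reads, 2 passed. Over all genes tested, 3.11% rose and 49.4% had a positive fold change. The flanking Cyp4b1 was positive as well. In the Cyp2j cluster, where all 7 genes lie on the minus strand, 2 of 5 tested genes had positive and 3 negative fold changes. The coding sequences of Cyp2j13 and Cyp2j5 are 77.2% identical, and those of Cyp4a10 and Cyp4a14 are 75.4% identical. Cyp2c44, an epoxygenase on chromosome 19, had a log2 fold change of -1.04 (SE 0.98), and is taken up with the steroid hormone genes because Control replicate 1 decided its value.

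Among 10 tested genes whose products are known for foreign compounds, 2 rose and 0 fell (median log2 fold change 0.22), where 3.11% and 2.68% of all genes tested did. At an unadjusted edgeR p under 0.05 there were 3 higher and 1 lower, DESeq2 called 3 and 1, and limma-voom called 1 and 0. Cyp2b10, which reached 60 reads through the knockout libraries, is in each of these counts of higher genes. It was the only gene of this role called by limma-voom, and without it Cyp2e1 alone rose in edgeR. Cyp2b10, the classical target of the nuclear receptor CAR (Nr1i3), lies on chromosome 7 (chr7:26682639-26711643). It had 0.843, 3.68 and 3.30 normalized counts in Control and 138, 167 and 142 in TfR1 knockout. The knockout libraries were close together and far from Control, with 8 Control reads against 415 knockout reads, a ratio of 58.6 (95% counting interval 29.4 to 137). The log2 fold change was 5.80 (SE 0.46, edgeR adjusted p = 0.00222), and 5.36 to 6.18 when 1 library was left out. Its receptor Nr1i3 had 56.5, 52.5 and 37.4 in Control and 19.2, 30.6 and 20.1 in knockout (log2 fold change -1.07, edgeR adjusted p = 0.12).

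Cyp2e1 (chr7:147949638-147960874), which oxidizes ethanol and acetone, had 574, 551 and 263 normalized counts in Control and 1721, 2085 and 882 in TfR1 knockout. The groups did not overlap and replicate 3 was the lowest of both. The log2 fold change of 1.75 (SE 0.39) passed narrowly (edgeR adjusted p = 0.0471) and in 0 of 6 omissions, where the p was 0.0529 to 0.108. Cyp2d22 had 727, 755 and 1130.0 in Control and 1382, 1863 and 1287 in knockout, again separate, with a log2 fold change of 0.80 (SE 0.22, edgeR adjusted p = 0.0824) that passed without Control replicate 3 (0.0414) and under DESeq2 (adjusted p = 0.0177). Cyp2d26, the third P450 gene by level per kilobase, had 5084, 4869 and 2182 in Control and 5374, 7397 and 3831 in knockout, which overlapped (log2 fold change 0.45, SE 0.36).

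Cyp3a13, a Cyp3a enzyme also known from the gut, was the member closest to a fall. It had 56.5, 52.4 and 94.7 normalized counts in Control and 39.4, 16.6 and 19.1 in TfR1 knockout, with no overlap, and its log2 fold change of -1.42 (SE 0.45, edgeR adjusted p = 0.106) passed without TfR1 knockout replicate 1 (0.0468) and under DESeq2 (adjusted p = 0.0352). The others of this role had log2 fold changes of 0.25 (Cyp1b1), 0.18 (Cyp2s1), -0.08 (Cyp2d37-ps, named as a pseudogene), -0.20 (Cyp2a5) and -0.75 (Cyp2f2), with edgeR adjusted p of 0.603 to 0.952. Cyp1a1, the classical target of the aryl hydrocarbon receptor, was under the minimum, with 23, 24 and 5 reads in Control and 3, 0 and 2 in knockout. It was chosen for mention after its values were seen, because the repressor of that receptor, Ahrr, fell.

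Of the 5 tested sterol and bile acid genes 0 passed in edgeR and limma-voom. At an unadjusted edgeR p under 0.05, 2 were higher (Cyp27a1 and Cyp7b1), and DESeq2 called 1 (Cyp27a1, DESeq2 adjusted p = 0.0289). Over all genes tested, 3.11% rose in edgeR and 8.47% by DESeq2. Cyp27a1, the mitochondrial sterol 27-hydroxylase, had 153, 182 and 331 normalized counts in Control and 306, 834 and 455 in knockout, overlapping through Control replicate 3 (log2 fold change 1.26, SE 0.43). Cyp7b1, the oxysterol 7-hydroxylase, had separate groups (151, 109.5 and 208 against 262, 272 and 210.3; log2 fold change 0.67, SE 0.28). Cyp51, the lanosterol demethylase of cholesterol synthesis, had 1785, 1657 and 991 in Control and 1397, 462 and 593 in knockout (log2 fold change -0.85, SE 0.43, edgeR adjusted p = 0.250), and without TfR1 knockout replicate 1 it was -1.49 and passed (0.0370). Cyp46a1, a cholesterol 24-hydroxylase, had a log2 fold change of -0.86 (SE 0.38) and Cyp39a1 one of -0.15 (SE 0.27). The retinoic acid hydroxylase Cyp26b1 (-0.13, SE 0.52), the vitamin D 25-hydroxylase Cyp2r1 (-0.42, SE 0.46) and Cyp20a1, which has no assigned role (0.27, SE 0.21), did not pass (edgeR adjusted p = 0.427 to 0.896). Cyp20a1 had 741, 669 and 1021 in Control and 803, 1119 and 1012 in knockout. Cyp2t4 had 2.53, 10.1 and 7.71 in Control and 13.1, 90.6 and 33.5 in knockout (log2 fold change 2.73, SE 0.81, edgeR adjusted p = 0.0931; DESeq2 adjusted p = 0.0128).

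The steroid hormone genes followed single libraries and not the groups. Cyp11a1, which cleaves the cholesterol side chain, had 3297, 20.2 and 8.81 normalized counts in Control and 12.1, 5.10 and 318 in TfR1 knockout. Cyp21a1, the steroid 21-hydroxylase, had 4656, 21.2 and 4.41 in Control and 2.02, 10.2 and 699 in knockout. The 11-beta-hydroxylase Cyp11b1 had 1694, 10.1 and 0 against 1.01, 0 and 258, and aldosterone synthase Cyp11b2 had 597, 1.84 and 2.20 against 0, 0 and 321. All 4 were thus high in Control replicate 1 and TfR1 knockout replicate 3 and at most 21.2 in the other libraries. These enzymes are known from the adrenal cortex. Their log2 fold changes, -3.29, -2.71, -2.70 and -0.90 in the order given, had SEs of 2.13 to 2.30 and did not pass (edgeR adjusted p = 0.358 to 0.819; 0 at an unadjusted p under 0.05, 0 with limma-voom, and none given an adjusted p by DESeq2), and all turned positive without Control replicate 1 (2.93 to 5.66).

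The adrenal markers moved with them. Of 10 listed, all were highest in Control replicate 1, among them the cortex genes Nr5a1 (788 normalized counts there, 78.4 in TfR1 knockout replicate 3 and 0 to 5.52 in the other libraries) and Hsd3b1 (6738 and 761, against 5.06 to 38.6), and the medulla genes Dbh (478 and 66, against 1.01 to 27.5) and Pnmt (486 and 42.1, against 0 to 5.10). Fdx1 and Fdxr, which pass electrons to Cyp11a1, were also highest in Control replicate 1 (2194 and 1032, against 752 to 1185 and 196 to 324). Likewise Cyp2c44 (142, against 8.93 to 44.9) and Cyp2f2 (398, against 33.0 to 138) stood highest there, and both fold changes were positive without that library (0.93 and 0.97). Cyp17a1, which the adrenal of adult mice is known to lack, had 28 reads in all. With Control replicate 1 and TfR1 knockout replicate 3 both left out, a fit chosen after seeing the data, Cyp2j13 and Cyp2b10 passed and the other 6 genes did not (edgeR adjusted p = 0.0915 to 0.347), while their log2 fold changes were 1.04 to 6.17.

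**Figure D4:**
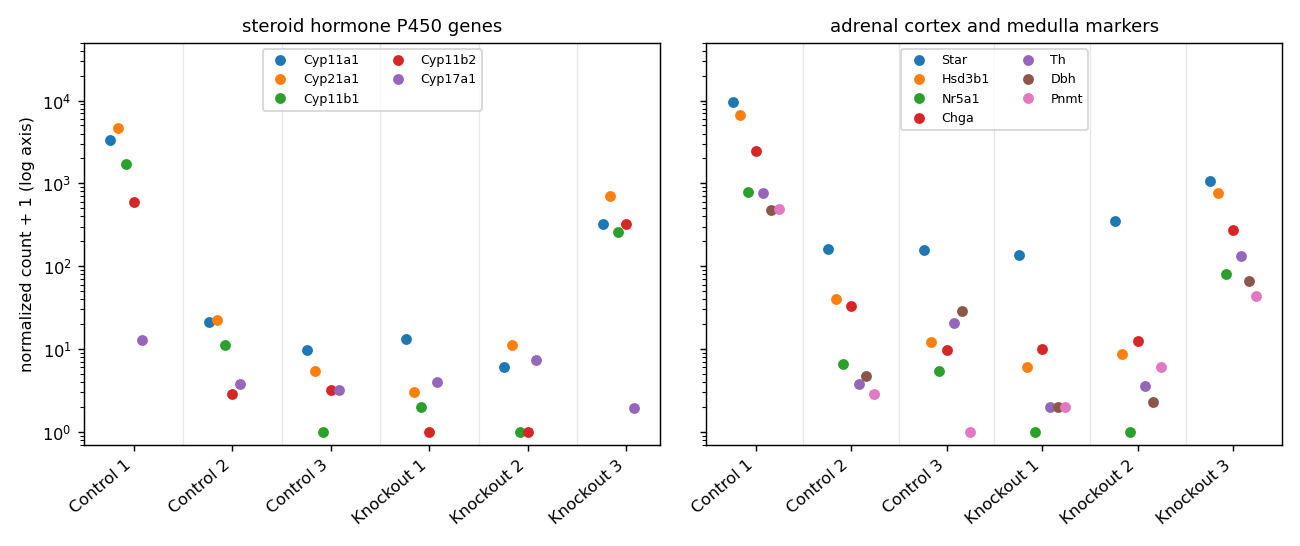
Normalized count plus 1 (y axis, log scale) of 5 steroid hormone P450 genes (left) and 7 adrenal markers (right) in each of the 6 libraries. Apart from Cyp17a1, the genes on the left are high in Control replicate 1 (597 to 4656) and TfR1 knockout replicate 3 (258 to 699) and at most 21.2 elsewhere, and the markers on the right follow the same libraries.

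As a whole the P450 genes took 0.252%, 0.207% and 0.16% of counted reads in Control and 0.304%, 0.586% and 0.331% in TfR1 knockout, with no overlap. Without Cyp4a14 the summed normalized counts of the tested genes overlapped, with 41831, 32797 and 23754 in Control and 37403, 50446 and 33036 in knockout. These sums and the shares below include Cyp11a1, Cyp11b1, Cyp11b2 and Cyp21a1. Those genes made up 21.1% of P450 reads in Control replicate 1 and 0.0117% to 2.52% in the other libraries. Cyp4a14 alone was 13.7%, 18.8% and 18.4% of P450 reads in Control and 36.8%, 61.3% and 47.6% in knockout, and Cyp2j5 was 22.9%, 28.7% and 19.8% against 10.5%, 4.13% and 7.14%. Per kilobase of exon, the order of mean levels in Control was Cyp2j5, Cyp4a14, Cyp2d26, Cyp4a10 and Cyp4a31, and in knockout Cyp4a14, Cyp2d26, Cyp4a10, Cyp4a31 and Cyp2j5. On this scale Cyp4a14 was at 2515 normalized counts per kilobase in Control and 16931 in knockout, and Cyp2j5 at 4051 and 2301.

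**Figure D5:**
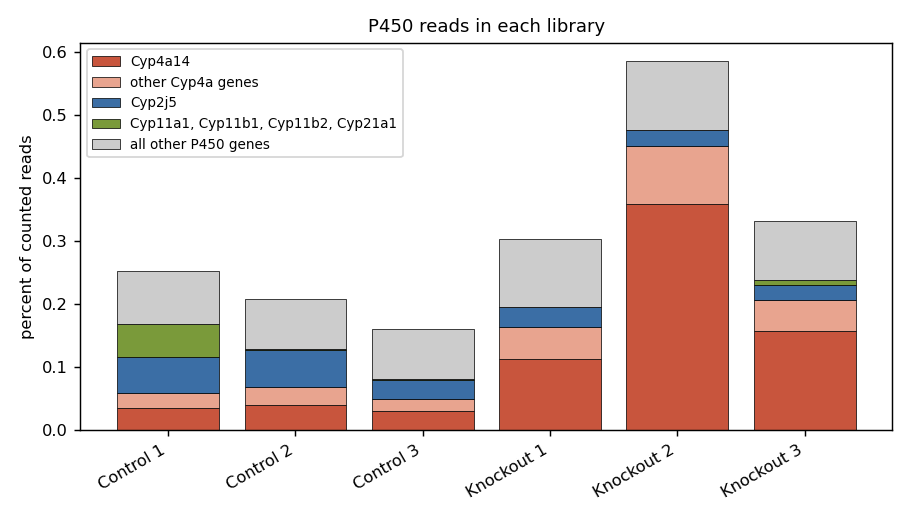
The percent of counted reads (y axis) that lay in P450 genes in each library, divided into Cyp4a14, the other Cyp4a genes, Cyp2j5, the 4 adrenal steroid genes and all others. The columns reach 0.16% to 0.252% in Control and 0.304% to 0.586% in TfR1 knockout, where Cyp4a14 makes up 36.8% to 61.3%.

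Some P450 genes differed between libraries with high and low Xist, so folds were also taken within each kind, with 2 Control and 1 knockout library of high Xist and 1 and 2 of low Xist, too few for a test. For all 8 called genes every knockout library lay above every Control library, so knockout had to be above Control in both kinds, and only the size of the ratio could differ. The ratio of means was 111 and 124 for Cyp2j13, 80.6 and 37.9 for Cyp2b10, 9.33 and 10.4 for Cyp4a12b and 2.33 and 2.02 for Cyp4v3, with high Xist given first. It was 13.3 and 3.43 for Cyp4a14, 5.26 and 1.69 for Cyp4a31, 80.6 and 20.0 for Cyp4a32 and 4.98 and 2.36 for Cyp2e1. For all of the 8 but Cyp2j13 and Cyp4a12b, the single knockout library of high Xist, replicate 2, was the highest of its group. Sex and the other properties of that library cannot be told apart here.

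The partners and regulators of the enzymes were taken as 40 listed genes, of which 39 were tested, 2 rose and 1 fell. Over all genes tested 3.11% rose and 2.68% fell, so these counts are near those of any list of this size. Without any 1 Control library or TfR1 knockout replicate 2, 0 of them rose, and without Control replicate 1 or 2 or TfR1 knockout replicate 3, 0 fell. Of 8 electron donors 0 passed in edgeR and limma-voom, 1 was higher and 1 lower at an unadjusted edgeR p under 0.05 (Cyb5r3 and Fdxr), and DESeq2 called 1 higher. Por, the reductase that supplies microsomal P450 enzymes, had 2564, 2585 and 1095 normalized counts in Control and 3130, 3302 and 2489 in knockout, overlapping (log2 fold change 0.51, SE 0.32, edgeR adjusted p = 0.340), and Fdx1 had a log2 fold change of -0.36 (SE 0.38). Among the epoxide hydrolases, Ephx1, the microsomal enzyme, rose from 1415, 1444 and 1246 to 2098, 2629 and 2033 (log2 fold change 0.72, SE 0.15, edgeR adjusted p = 0.0363). The soluble enzyme Ephx2, which ends the action of arachidonic acid epoxides, had separate groups too (1154, 1258 and 923 against 1782, 2264 and 1320.3; log2 fold change 0.69, edgeR adjusted p = 0.108).

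Of 27 tested regulators 1 rose and 1 fell, again near the shares of all genes tested (3.11% and 2.68%). Cebpb, a factor of the acute phase, rose from 323, 269 and 209 to 872, 779 and 416 (log2 fold change 1.37, SE 0.31, edgeR adjusted p = 0.0463). Ahrr, the repressor of the aryl hydrocarbon receptor, fell from 34.5, 28.5 and 33.0 to 6.07, 3.83 and 6.69 (log2 fold change -2.49, SE 0.40, edgeR adjusted p = 0.0185), while the receptor Ahr had a log2 fold change of 0.09 (SE 0.22). Ppara had 1107, 1168 and 524 in Control and 1657, 5904 and 2114 in knockout, separate groups with the same high library as Cyp4a14 (log2 fold change 1.79, SE 0.53, edgeR adjusted p = 0.0905; DESeq2 adjusted p = 0.0036). Hnf4a, a factor of proximal tubule and liver, had a log2 fold change of -0.26 (SE 0.32).

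Markers of cell types changed along with the P450 genes, and their part in the results was not tested. Over all genes tested, 3.11% rose and 2.68% fell in edgeR, and 8.47% and 7.87% did by DESeq2. The summed level of 10 genes of all proximal tubule segments was 66154 to 128417 normalized counts in Control and 129387 to 220685 in knockout. Of these genes 2 were higher (Pck1 and Slc22a6) and 0 lower. Their median log2 fold change was -0.12, so the sum does not stand for every gene. At an unadjusted edgeR p under 0.05 there were 2 higher and 2 lower. DESeq2 called 2 higher and 1 lower, and limma-voom called 2 and 0. The sum of 5 early segment genes was 36276 to 69588 in Control against 26611 to 34201 in knockout, with 2 lower (Slc5a2 and Slc7a7). That of 5 late segment genes was 5282 to 12904 against 5904 to 8363, with 1 lower (Slc7a13). Thick limb markers were lower (46302 to 107985 against 11944 to 24038, 3 of 5 called), and macrophage markers higher (1979 to 3063 against 3876 to 5957, 3 of 6 called). The summed level of 5 collecting duct genes was 8657 to 14824 in Control against 30572 to 63685 in knockout, with 1 higher (Aqp2). By DESeq2, and at an unadjusted edgeR p under 0.05, 3 of them were higher and 0 lower. Of the podocyte, endothelium, stroma and urothelium markers 0 passed in edgeR and limma-voom, where 2 were higher and 1 lower at an unadjusted edgeR p under 0.05 and by DESeq2. Control replicate 3 had the lowest proximal tubule sums of its group. There Cyp2j5, Cyp2d26, Cyp2e1 and all tested Cyp4a genes were also at their lowest among Controls, while Cyp2j13 and Cyp4v3 were at their highest. Its stroma sum was 101736, against 49762 and 46680 in Control replicates 1 and 2.

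The 49 genes with 1 to 59 reads had 136, 129 and 97 reads together in Control and 181, 89 and 98 in TfR1 knockout. The groups thus overlapped. Of these genes, 15 had 0 reads in every Control library, where 3 reads is the limit that a count of 0 allows. By this choice all their reads lay in knockout, with 70, 14 and 6 together in replicates 1 to 3. They included the liver enzymes Cyp3a11, Cyp2c29, Cyp2c37, Cyp2c70, Cyp2a12 and Cyp7a1. Of these Cyp7a1 had 1 read in all, and the 9 reads of Cyp2c37 were all in knockout replicate 1. Other genes with 1 to 59 reads did not follow. Among them, Cyp8b1 had 7 reads in Control and 5 in knockout, and Cyp4f14 had 9 and 3. The sum of the liver markers was above the Control range in TfR1 knockout replicates 1 and 2 and within it in replicate 3. The part of these markers in the results was not tested. Their summed level over 5 genes was 3421 to 5160 normalized counts in Control, and 9042, 15930 and 4261 in knockout, mostly Ttr. Albumin (Alb) had 28.7, 15.6 and 14.3 in Control and 440.0, 370 and 67.9 in knockout (log2 fold change 3.88, SE 0.72, edgeR adjusted p = 0.0278). Of the 5 liver markers, edgeR called Alb alone, 3 were higher at an unadjusted edgeR p under 0.05, DESeq2 called 3 higher, and limma-voom called 0. Over all genes tested, 3.11% rose in edgeR and 8.47% by DESeq2. Another 6 genes had reads in Control alone, 7 in all. Cyp2c55, an epoxygenase known from the gut, had 0, 1 and 0 reads in Control and 13, 7 and 9 in knockout. When every gene with at least 1 read was tested, it and Cyp4a10 passed beside the 8 genes named above.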

How the data were processed

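Poly-A RNA of 6 mouse kidneys (3 Control, 3 TfR1 knockout) was sequenced as single reads. The authors processed reads with CASAVA 1.8.2 and Trimmomatic, aligned them with TopHat2 2.0.11 to mm9, and deposited raw counts per gene of uniquely aligned reads made with HTSeq, with no normalization. The annotation and strand setting of the counting are not given in the sources used here. Unique counting lowers the counts of near-identical genes.

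Groups came from the sample labels. Genes with at least 60 reads over the 6 libraries were tested with edgeR 4.0.16 (quasi-likelihood F test, TMM, no covariate) in R 4.3.3, with Benjamini-Hochberg adjustment over all 15327 genes and a threshold of 0.05. The study names DESeq2. It was run as an alternative (1.42.0), with limma-voom 3.58.1, other scalings and filters, a fold change of at least 2, the replicate block and omission of each library. The code was tested on simulated counts. Standard errors were derived from the fold change and F. Positions, exon lengths and sequences came from the GENCODE annotation and genome of the same build, matched by symbol. Read windows were 100 bases. Total counts were 16591156 to 22898008, so that 3 libraries a group, and not depth, limit precision for all but rare genes. The members and the gene lists were chosen with earlier results of these data known. Every tested member is named. Values per library are given for genes that passed and for the 10 highest per kilobase, and for others where a result turns on them.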

Additional observations from a re-analysis of the deposited data

How the results depend on the processing

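The calls of Cyp2j13 and Cyp2b10 held in every fit named here. The count of higher P450 genes (8) was 13 with DESeq2, 2 without Control replicate 1 and TfR1 knockout replicate 3 together, and 2 to 8 with each library left out; that of lower genes (0) was 2 with DESeq2 and 0 to 2. Over all genes, 477 higher and 410 lower became 1295 and 1204 with DESeq2, 33 and 14 with both libraries left out, and 101 to 664 and 72 to 680 with each. Among pathway genes, 2 higher became 7 with DESeq2, 1 with limma-voom, with library totals alone and at a fold change of at least 2, 0 without both libraries and 0 to 2 with each, and 1 lower became 0 without both and 0 to 1 with each. The median log2 fold change of P450 genes (0.16) was 0.35 without both libraries, 0.65 without Control replicate 1, 0.10 without Control replicate 2 and 0.07 with library totals alone. The replicate numbers were not taken to pair the samples, since the deviations of same-numbered libraries correlated at -0.03, 0.06 and 0.10. With the replicate block 10 P450 genes were higher and 0 lower, and 4 pathway genes were higher. Scaling by library totals alone moved the median of all genes by -0.0886 and called 8 P450 genes higher, with Cyp4a10 (edgeR adjusted p = 0.0479) in place of Cyp4v3 (0.0504). For single genes, 503 results stayed on the same side of the threshold, whatever their direction, and 36 lost and 16 gained a call. No called value changed sign, while 14 of 40 tested genes, none called, changed sign in at least 1 omission. The causes were not tested.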
